A study of Mus musculus with 20 samples.

Results

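The complement genes described here are 9 of the 45705 genes in the table. They are C1qa, C1qb and C1qc, which encode the chains of C1q, C3 and C4b, which encode complement proteins C3 and C4, the anaphylatoxin receptor genes C3ar1 and C5ar1, and Itgam and Itgb2, which encode the αM and β2 chains of complement receptor 3. They were chosen by name, and all 9 were found. RNA was sequenced from cells of the periventricular zone of Swiss Webster mouse pups at postnatal day 5, with litters pooled and both sexes included, and there was no treatment or genetic change. The cells were dissociated with liberase and sorted on 4 surface antigens, CD133, LeX (CD15), CD140a and NG2, into 5 populations of 4 libraries each. Neural stem cells (NSC) were CD133+ LeX+ NG2- CD140a-. BNAP/GRP1 cells were NG2+ LeX+ CD133- CD140a-, and GRP2/MP3 cells were NG2+ LeX- CD133- CD140a-. GRP3 cells were NG2+ CD140a+ CD133- LeX-, and PFMP cells were NG2+ CD140a+ CD133- LeX+. The 4 progenitors were each compared with NSC and with each other. No antigen of the panel was described as serving to exclude leukocytes. BNAP/GRP1 and GRP2/MP3 each join progenitor subtypes that were not separated, so each of these libraries is a mixture. A library is named by its population and batch, so NSC 3 is the NSC library of batch 3.

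Complement is a cascade of plasma and tissue proteins that tags surfaces for uptake. In the classical pathway C1q binds a target and, through its attached proteases, leads to the cleavage of C4 and C2 and then of C3, the protein on which all activation routes meet. Fragments of C3 left on a surface are bound by complement receptor 3, and the small fragments C3a and C5a act on C3ar1 and C5ar1. In the brain, microglia are the main source of C1q and carry complement receptor 3, and C1q, C3 and this receptor take part in the removal of synapses during development.

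Values are RPKM (reads divided by gene length and by the library total) as deposited, so levels are per length. The gene lengths used were not given and the RNA was amplified, so comparisons of levels between genes are approximate. Read totals were not given. The depth of the libraries, read from the whole-number steps of low values, ran from 0.0395 (BNAP/GRP1 4) to 1.41 (BNAP/GRP1 3) times that of BNAP/GRP1 1. The 5 libraries of batch 3 resembled each other whatever their population, with Pearson r of 0.94 to 0.97 over all genes. They held 228440 to 252653 RPKM over 5 erythroid markers, 4729 to 5250 over 8 leukocyte or myeloid markers, 1300 to 1510 over 8 alveolar macrophage markers and 854 to 976 over 4 lung epithelium markers. Their astroglia markers summed to only 13.7 to 34.5 RPKM, against 40.5 to 3267 in the other 15 libraries. BNAP/GRP1 4 had a median over all genes of 8.30 RPKM, whereas no other library exceeded 2.02, so values of a few RPKM in that library are those of a typical gene there. The medians of GRP3 4, NSC 4 and GRP2/MP3 4 were 2.02, 1.61 and 0.977 RPKM, and those of the other 16 libraries were under 0.25. The likeness within batch 3 and these medians bear on every gene below, and results are therefore given with and without batch 3. Outside batch 3 the 6 ependymal markers summed to 4947 to 20387 RPKM in NSC and to no more than 158 in the progenitors, and the 7 OPC (oligodendrocyte progenitor) markers to 346 to 3497 in GRP3 and PFMP but 17.9 to 151 in the other 3 populations.

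C1qa, C1qb and C1qc lie side by side on the minus strand of chromosome 4 (GRCm38). Their annotated positions are chr4:136895917-136898803 for C1qa, chr4:136880129-136886187 for C1qb and chr4:136889804-136893065 for C1qc. Upstream sequence from RefSeq (GRCm38.p6) was at hand for 6 of the 9 genes, C1qb, C1qc, C3, C3ar1, C5ar1 and Itgam. The 250 bases before the RefSeq start are shown for all 6, of which C3 alone had an r near 0 with C1qa outside batch 3. The annotated genes reach into the windows of C1qc (to 136893065), C5ar1 (to 16259540) and C3ar1 (to 122856161). Part of these windows thus lies inside the annotated gene, and places of matches are counted from the RefSeq start. Capitals mark matches on either strand to GAGGAA (the core bound by PU.1, a factor of myeloid cells), TTGCNNAA (a C/EBP type site) or TATAAA.
C1qb (chr4:136886201-136886450, minus strand): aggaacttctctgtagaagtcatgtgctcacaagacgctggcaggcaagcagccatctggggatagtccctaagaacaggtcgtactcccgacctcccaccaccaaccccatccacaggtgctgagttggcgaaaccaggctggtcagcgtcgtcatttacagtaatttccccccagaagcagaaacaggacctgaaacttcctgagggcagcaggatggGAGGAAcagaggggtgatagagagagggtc
C1qc (chr4:136892915-136893164, minus strand): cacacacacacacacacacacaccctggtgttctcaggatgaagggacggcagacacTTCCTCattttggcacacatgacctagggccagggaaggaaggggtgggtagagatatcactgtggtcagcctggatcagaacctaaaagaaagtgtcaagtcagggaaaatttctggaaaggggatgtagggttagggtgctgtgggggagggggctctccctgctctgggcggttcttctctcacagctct
Itgam (chr7:128062390-128062639, plus strand): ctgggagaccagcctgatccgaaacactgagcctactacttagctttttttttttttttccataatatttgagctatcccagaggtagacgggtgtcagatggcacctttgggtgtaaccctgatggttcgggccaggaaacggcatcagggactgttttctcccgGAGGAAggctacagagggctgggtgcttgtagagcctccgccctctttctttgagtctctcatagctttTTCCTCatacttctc
C3ar1 (chr6:122856158-122856407, minus strand): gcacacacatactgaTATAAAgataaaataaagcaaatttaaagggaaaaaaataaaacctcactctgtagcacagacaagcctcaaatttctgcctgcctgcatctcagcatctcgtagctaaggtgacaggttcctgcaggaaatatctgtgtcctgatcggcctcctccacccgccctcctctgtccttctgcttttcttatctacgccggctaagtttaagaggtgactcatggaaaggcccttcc
C5ar1 (chr7:16259339-16259588, minus strand): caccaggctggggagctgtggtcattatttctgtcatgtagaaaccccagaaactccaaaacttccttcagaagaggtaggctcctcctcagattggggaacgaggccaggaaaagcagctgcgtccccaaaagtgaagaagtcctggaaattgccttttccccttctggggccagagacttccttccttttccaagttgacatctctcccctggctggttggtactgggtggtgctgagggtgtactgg
C3 (chr17:57228137-57228386, minus strand): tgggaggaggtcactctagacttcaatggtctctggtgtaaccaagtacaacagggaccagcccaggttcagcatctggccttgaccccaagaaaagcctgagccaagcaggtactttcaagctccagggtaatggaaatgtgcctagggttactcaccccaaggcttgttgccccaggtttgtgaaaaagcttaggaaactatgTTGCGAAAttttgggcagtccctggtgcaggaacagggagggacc
GAGGAA was found once before C1qb (bases 30 to 25 before the start), once before C1qc on the opposite strand (bases 193 to 188) and at 2 places before Itgam, but not before C3ar1 or C5ar1. It is common, being present in 23.3% of 32851 promoter windows of this length. The single match before C3 was TTGCNNAA, at bases 45 to 38 before the start, a motif held by 9.56% of windows. TATAAA, held by 12.4% of windows, was found before C3ar1 (bases 235 to 230), and C5ar1 had none of these letters.

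The C1q chains had their highest levels in BNAP/GRP1 1 and GRP2/MP3 1. C1qa stood at 1053, 387, 585 and 16.3 RPKM in BNAP/GRP1 1 to 4 and at 1242, 360.1, 569 and 32.6 RPKM in GRP2/MP3 1 to 4. In NSC it stood at 1.95, 2.76, 517.9 and 3.63 RPKM, in GRP3 at 2.50, 1.59, 589 and 2.99, and in PFMP at 0.475, 3.25, 563 and 7.67. Batch 3 was thus alike in all 5 populations, and in the other batches BNAP/GRP1 and GRP2/MP3 lay above every library of the other 3 populations. The whole-number steps of the C1qa values imply 75432, 6282 and 46 reads in BNAP/GRP1 1, 2 and 4 (or a multiple of these), but only 22, 72 and 41 reads in NSC 1, 2 and 4 and 4 reads in PFMP 1. The value of 16.3 RPKM in BNAP/GRP1 4 was above that of 79.2% of genes in that library, and the 32.6 RPKM in GRP2/MP3 4 above that of 94.0%.

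C1qb followed the same order. It stood at 1590.0, 482, 965 and 8.67 RPKM in BNAP/GRP1 and at 1929.6, 408, 932 and 76.7 RPKM in GRP2/MP3. In NSC the 4 values were 2.35, 7.58, 888 and 4.68 RPKM, and in GRP3 they were 1.89, 0.886, 982 and 3.73. PFMP had 0.559, 8.44, 895 and 15.8 RPKM, so PFMP 4 lay above BNAP/GRP1 4, where C1qb was close to the median gene (above 52.3% of genes). C1qc was the highest of the chains in BNAP/GRP1 1, at 2942 RPKM, and stood at 689.9, 699.6 and 20.7 RPKM in BNAP/GRP1 2 to 4. GRP2/MP3 had 1953, 1257, 713 and 90.7 RPKM of C1qc. The NSC values were 6.94, 7.34, 630.1 and 6.46 RPKM, GRP3 had 7.41, 4.60, 693 and 3.53, and PFMP had 3.73, 14.0, 671 and 23.4. Outside batch 3, C1qc in GRP2/MP3 lay above every library of NSC, GRP3 and PFMP, whereas BNAP/GRP1 4 fell below PFMP 4.

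**Figure D1:**
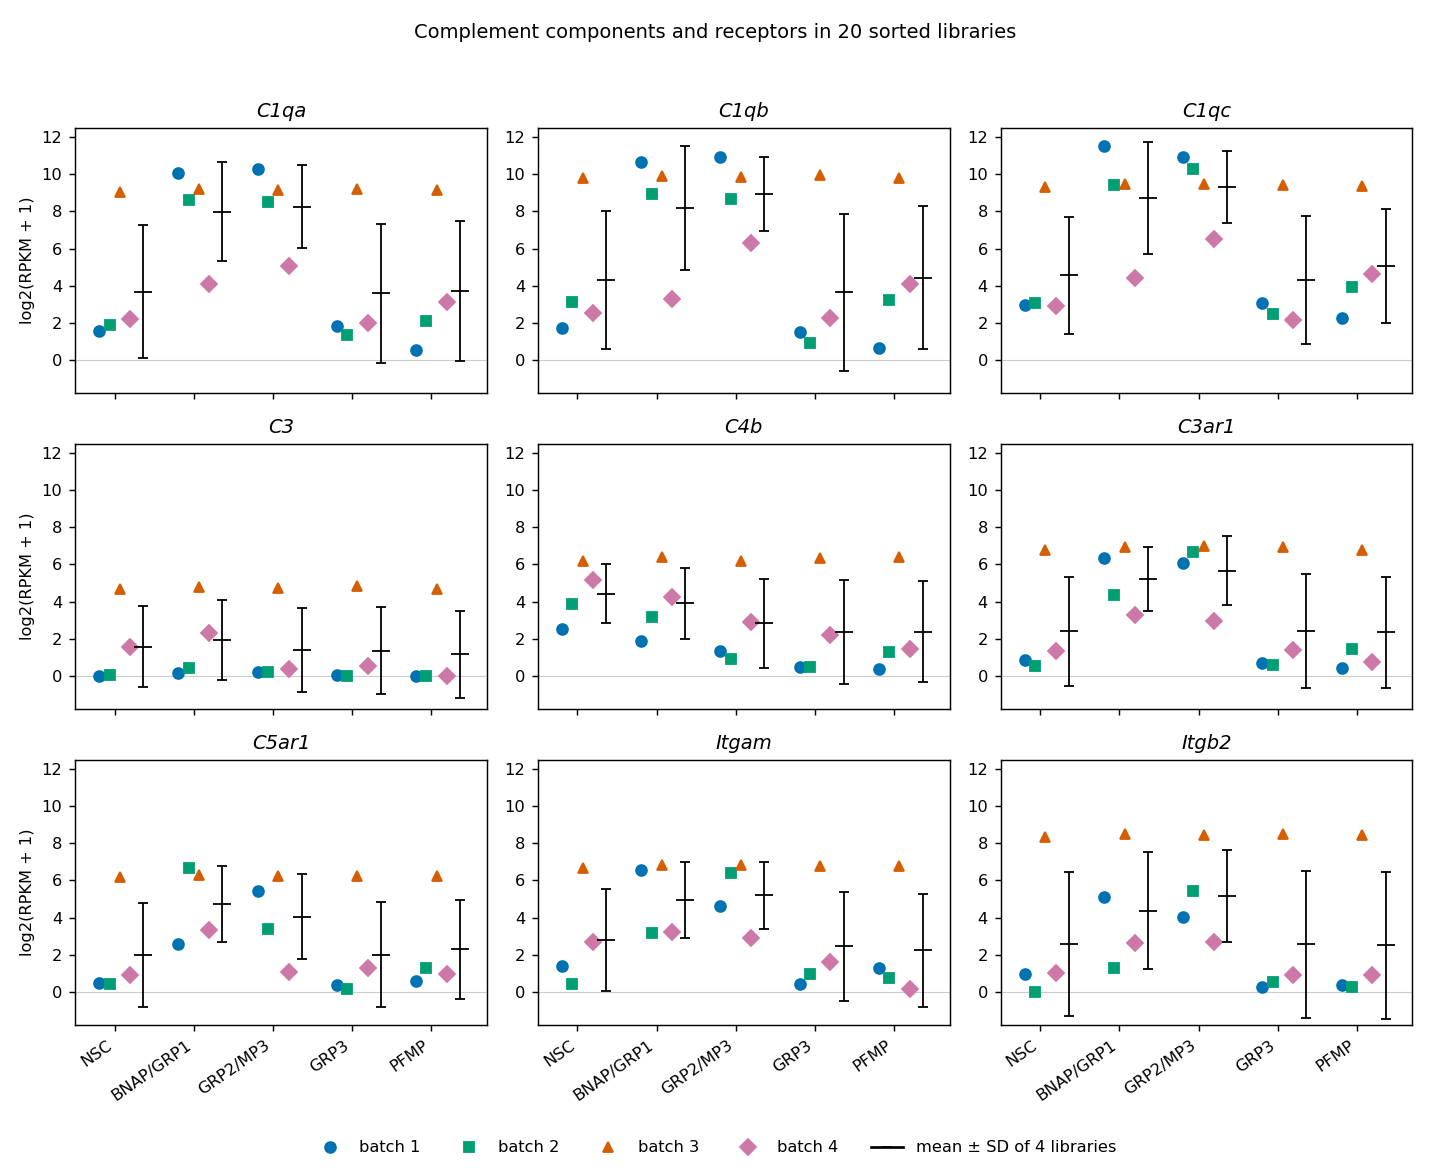
Levels of the 9 complement genes as log2(RPKM + 1) (y axis) in the 5 populations (x axis), with 1 point per library, shape and colour by batch, and black bars for the mean ± SD of the 4 libraries. The 5 triangles of batch 3 sit at one height for each gene, while in batches 1 and 2 the C1q chains and C3ar1 are high only in BNAP/GRP1 and GRP2/MP3 among the 5 populations.

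C1q is built from equal numbers of its A, B and C chains, and their RNA shares differed between batches. C1qb had the largest share of the summed C1q RPKM in all 5 libraries of batch 3, at 42.1 to 43.6%, with C1qc at 30.6 to 32.2% and C1qa at 25.4 to 26.5%. In the 4 libraries of BNAP/GRP1 and GRP2/MP3 in batches 1 and 2, which held 1559 to 5585 RPKM of C1q, C1qc had the largest share, at 38.1 to 62.1%, and C1qb had 20.1 to 37.7%. GRP2/MP3 4, with 199.95 RPKM of C1q, had 45.4% C1qc and 38.3% C1qb. The ranges of C1qb and of C1qc in these 5 libraries did not meet those of batch 3, though the number of libraries is small and no test was made. In the 10 other libraries, with 4.76 to 46.9 RPKM of C1q, the C1qc share ran from 34.4 to 78.3%.

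**Figure D2:**
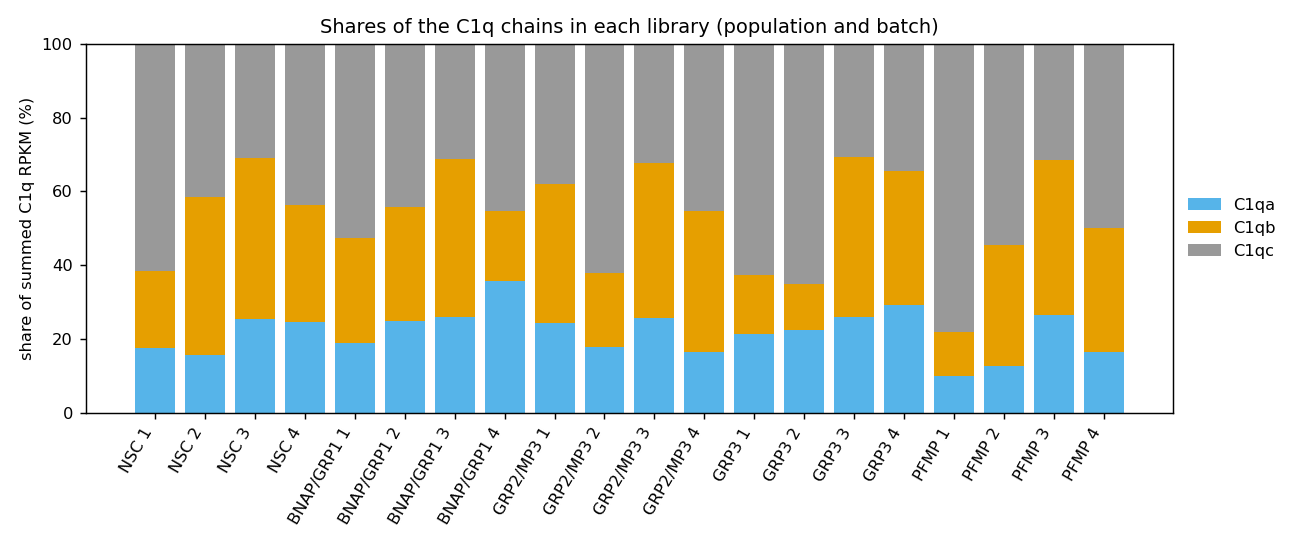
Share of C1qa, C1qb and C1qc in the summed C1q RPKM (y axis, percent) of each of the 20 libraries (x axis, population and batch). The 5 libraries of batch 3 have nearly the same shares, with C1qb largest at 42.1 to 43.6%, whereas C1qc is largest in 13 of the other 15 libraries.

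C3, the central protein of the cascade (chr17:57203970-57228136, minus strand), stood at 24.4 to 27.9 RPKM in the 5 libraries of batch 3 and at no more than 3.98 RPKM in the other 15. The batch 3 values were 24.4 in NSC, 24.6 in PFMP, 26.1 in GRP2/MP3, 27.1 in BNAP/GRP1 and 27.9 in GRP3. In batches 1, 2 and 4 it was listed at 0 in PFMP 1, PFMP 2, PFMP 4 and NSC 1. BNAP/GRP1 had 0.120, 0.341 and 3.98 RPKM in these batches, GRP2/MP3 0.164, 0.149 and 0.276, GRP3 0.0263, 0.0129 and 0.462, and NSC 2 and 4 had 0.0410 and 1.96. The steps imply 48 reads in BNAP/GRP1 1 against 15316 in BNAP/GRP1 3. The highest value outside batch 3, in BNAP/GRP1 4, was above that of only 24.1% of genes in its library. In batches 1 and 2 the order was that of C1q, with BNAP/GRP1 and GRP2/MP3 highest at 14 to 48 implied reads against 0 to 6 in the other 3 populations. In batch 4 it was not, since NSC 4 (1.96 RPKM) lay above GRP2/MP3 4 (0.276 RPKM), and PFMP 4, one of the deeper libraries (0.985 of BNAP/GRP1 1), gave no C3 read. The value in NSC 4 was that of a typical gene there, above 56.8% of genes, and the value in GRP2/MP3 4 was above 20.9%. The order in batch 4 thus rests on values near or below the median gene of these libraries.

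C4b encodes C4, whose fragment joins the enzyme that cleaves C3 (chr17:34728380-34743882, minus strand). It was the only one of the 9 genes with its highest mean outside batch 3 in NSC, at 17.5 ± 15.2 RPKM (SD, n = 3) against 1.16 ± 0.762 in PFMP, 1.44 ± 1.84 in GRP3, 2.96 ± 3.00 in GRP2/MP3 and 9.47 ± 7.62 in BNAP/GRP1. NSC had 4.69, 13.5 and 34.4 RPKM in batches 1, 2 and 4. BNAP/GRP1 had 2.68, 8.02 and 17.7 RPKM and GRP2/MP3 1.58, 0.895 and 6.41. GRP3 had 0.370, 0.384 and 3.56 RPKM and PFMP 0.302, 1.42 and 1.76. Within each of these batches NSC was the highest of the 5 populations, and every GRP3 and PFMP library lay below all 3 NSC libraries. Batch 3 had 71.2 RPKM in NSC and 73.2 to 82.8 RPKM in the progenitors. C4b has a near copy, C4a, with which 23.5% of its 75-base stretches are shared, so reads may be split between the pair. C4a itself stood at 1.59, 5.70 and 5.54 RPKM in NSC 1, 2 and 4, and at 39.5 RPKM in BNAP/GRP1 4, above C4b there.

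The receptor for C3a, C3ar1 (chr6:122847138-122856161, minus strand), was distributed like C1q. It stood at 79.9, 19.3, 120.3 and 8.75 RPKM in BNAP/GRP1 1 to 4 and at 66.2, 101.0, 126 and 6.86 RPKM in GRP2/MP3 1 to 4. The values were 0.831, 0.462, 110.3 and 1.55 RPKM in NSC, 0.611, 0.521, 123 and 1.65 in GRP3, and 0.347, 1.74, 110.5 and 0.682 in PFMP. Outside batch 3 the 6 libraries of BNAP/GRP1 and GRP2/MP3 lay above all 9 of the other populations, with 8.75 RPKM in BNAP/GRP1 4 near the median gene of that library. The receptor for C5a, C5ar1 (chr7:16246743-16259540, minus strand), was more uneven. It stood at 5.05, 99.8, 76.5 and 9.18 RPKM in BNAP/GRP1 and at 42.4, 9.59, 75.7 and 1.13 RPKM in GRP2/MP3. The high library of BNAP/GRP1 was thus batch 2, and that of GRP2/MP3 batch 1. The other populations had 0.127 to 1.47 RPKM of C5ar1 outside batch 3 and 71.8 to 75.2 RPKM within it.

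Itgam (chr7:128062640-128118491, plus strand) and Itgb2 (chr10:77530252-77565708, plus strand) encode the subunits of complement receptor 3, and β2 also pairs with other α chains of leukocytes. An annotated gene on the same strand, Gm49368, overlaps exons of Itgam. Itgam stood at 92.7, 7.97, 114 and 8.36 RPKM in BNAP/GRP1 and at 23.8, 84.9, 113 and 6.34 RPKM in GRP2/MP3. NSC had 1.61, 0.335, 100.4 and 5.48 RPKM, GRP3 0.337, 0.974, 109.8 and 2.02, and PFMP 1.41, 0.674, 108 and 0.106. Itgb2 stood at 33.1, 1.46, 358 and 5.20 RPKM in BNAP/GRP1 and at 15.3, 41.4, 351 and 5.35 RPKM in GRP2/MP3. It was at 0.966, 0, 317 and 0.991 RPKM in NSC 1 to 4, at 0.219 to 0.860 RPKM in GRP3 and at 0.217 to 0.906 RPKM in PFMP outside batch 3. Per length, Itgb2 was 3 times or more the level of Itgam in batch 3, whereas Itgam was the higher of the pair in all 6 libraries of BNAP/GRP1 and GRP2/MP3 outside it.

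The comparison of each progenitor with NSC used limma on log2(RPKM + 1) over all 20 libraries, with 27614 genes tested and Benjamini-Hochberg adjustment across them. None of the 9 genes passed an adjusted p of 0.05 in any of the 4 comparisons, in which 1.14% of genes passed for PFMP, 1.05% for GRP3, 1.12% for GRP2/MP3 and 0.76% for BNAP/GRP1. At an unadjusted p under 0.05 there were 2 members in BNAP/GRP1, 3 in GRP2/MP3 and 0 in GRP3 and PFMP, beside 5.62 to 5.9% of all genes in these comparisons. The estimates were large and imprecise. For GRP2/MP3 the estimate was a log2 fold change of 4.57 (SE 2.01, 95% interval 0.38 to 8.76) for C1qa, 4.65 for C1qb, 4.74 for C1qc, 3.28 for C3ar1, 2.57 for Itgb2, 2.40 for Itgam and 2.06 for C5ar1, with adjusted p of 0.489 for C1qc and 0.713 or more for the others. In BNAP/GRP1 it was 4.31 (SE 2.01, 0.12 to 8.50) for C1qa, 3.90 for C1qb, 4.15 for C1qc, 2.83 for C3ar1, 2.73 for C5ar1, 2.16 for Itgam and 1.81 for Itgb2, with adjusted p of 0.787 or more. C4b had log2 fold changes of -2.04 in PFMP, -2.05 in GRP3, -1.57 in GRP2/MP3 and -0.51 in BNAP/GRP1. The median over the 9 genes was 2.73 in BNAP/GRP1 and 2.57 in GRP2/MP3, beside 0.38 and -0.08 over all genes tested. It was -0.21 in GRP3 and -0.03 in PFMP, beside 0.05 and -0.20. These comparisons share their NSC libraries. Fewer cells of a type and less RNA per cell cannot be told apart in sorted bulk RNA.

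Part of the spread that widened these intervals lay between batches. With batch as a block, the SE against NSC fell from 2.01 to 1.32 for C1qa in GRP2/MP3 and from 1.46 to 0.55 for C4b in GRP3. Without batch 3 the fall was smaller, from 1.33 to 1.23 and from 0.86 to 0.63. The differences from NSC themselves also varied from batch to batch, which a block does not remove. The difference of C1qa from the NSC library of its own batch was 8.48, 6.69, 0.18 and 1.899 on the log2 scale in batches 1 to 4 for BNAP/GRP1, and 8.72, 6.59, 0.14 and 2.86 for GRP2/MP3. For C4b it was -2.05, -3.39, 0.18 and -2.95 in GRP3 and -2.13, -2.58, 0.21 and -3.68 in PFMP. With batch as a block, still 0 of the 9 genes passed, with 2.79% of all genes called for PFMP, 2.6% for GRP3, 3.08% for GRP2/MP3 and 2.09% for BNAP/GRP1. The nearest were C4b in PFMP (adjusted p = 0.0503) and in GRP3 (0.0515), and C3ar1 (0.0508) and C1qc (0.0563) in GRP2/MP3, all by limma.

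Without batch 3, the C1q chains and C3ar1 were higher in GRP2/MP3 than in NSC (limma). The log2 fold change was 6.05 ± 1.33 (SE) for C1qa, with an adjusted p of 0.0254, and 6.17 ± 1.499 for C1qb (0.0458). It was 6.27 ± 1.40 for C1qc (0.0290) and 4.31 ± 0.92 for C3ar1 (0.0208), so 4 of the 9 genes passed, beside 1.82% of all genes. In BNAP/GRP1 only C1qa passed, at 5.69 ± 1.33 (adjusted p = 0.0488), beside 1.16% of genes, and in GRP3 and PFMP 0 of 9 passed, beside 1.71% and 1.76%. With batch as a block and batch 3 left out, the same 4 genes passed in GRP2/MP3 (adjusted p of 0.0084 to 0.0257 by limma, beside 2.79% of genes). C1qa (0.0226), C1qc (0.0269) and C3ar1 (0.0390) passed in BNAP/GRP1, beside 1.74% of genes. C4b was lower than in NSC in GRP3, with a log2 fold change of -2.80 ± 0.63 and an adjusted p of 0.0221 by limma, beside 2.51% of genes called. In PFMP the corresponding values for C4b were -2.80 ± 0.63 and 0.0221, beside 2.63%. C5ar1, Itgam and Itgb2 did not pass in either population, the closest being Itgb2 in GRP2/MP3 (log2 fold change 3.38 ± 0.88, limma adjusted p = 0.0528). Outside batch 3, 7 of the 9 genes lay above every NSC library in BNAP/GRP1 and 7 in GRP2/MP3, against 4.96% and 3.75% of all genes. In BNAP/GRP1 4, with its high median, Itgb2, Itgam and C5ar1 lay above only 29.8%, 50.4% and 55.3% of the genes of that library. In GRP2/MP3 4, C5ar1 (1.13 RPKM) lay above only 54.1% of genes, beside 0.869 RPKM in NSC 4 and 1.44 RPKM in GRP3 4. Itgam stood at 6.34 RPKM in GRP2/MP3 4, beside 5.48 RPKM in NSC 4. The other genes counted for GRP2/MP3 had wider margins over NSC 4. C4b lay below every NSC library in GRP3 and PFMP, against 7.18% and 11% of all genes.

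**Figure D3:**
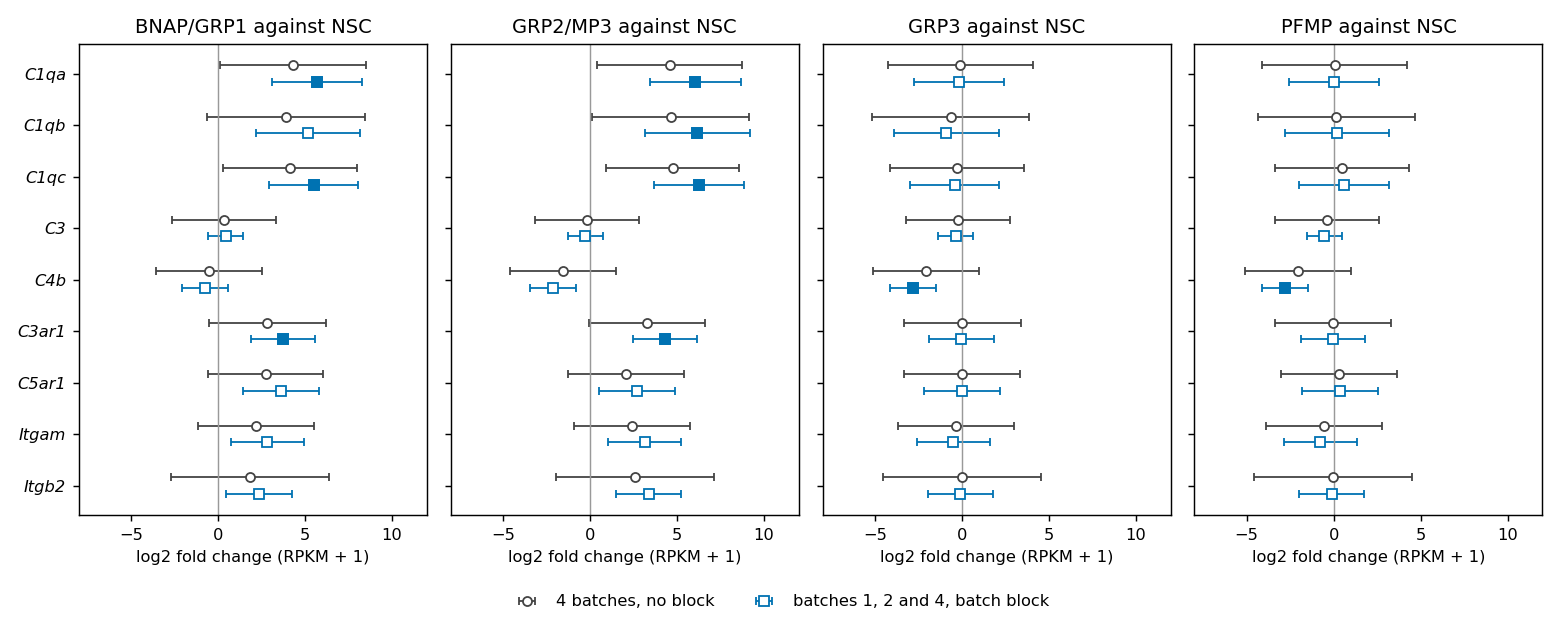
Log2 fold change of each gene against NSC (x axis, on log2(RPKM + 1)) with 95% intervals, in 4 panels for the 4 progenitors, for all 4 batches with no block (grey circles) and for batches 1, 2 and 4 with a batch block (blue squares). Filled points have an adjusted p under 0.05, which none of the grey circles reaches, and the blue intervals are the narrower for all 9 genes.

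In the 6 direct comparisons of progenitors, 0 of the 9 genes passed and 0% of all genes were called, with or without batch 3, when batch was not in the model. The number of members at an unadjusted p under 0.05 was 3 for BNAP/GRP1 against GRP3, beside 1.9% of all genes, and 3 for GRP2/MP3 against GRP3, beside 1.69%. Against PFMP it was 1 for BNAP/GRP1, beside 4.91% of genes, and 2 for GRP2/MP3, beside 1.66%. With batch as a block and batch 3 left out, 4 genes were higher in GRP2/MP3 than in GRP3 (limma), beside 0.355% of all genes. Their log2 fold changes were 6.22 ± 1.23 for C1qa, 7.06 ± 1.42 for C1qb, 6.67 ± 1.21 for C1qc and 4.34 ± 0.88 for C3ar1, with adjusted p of 0.0417, 0.0450, 0.0303 and 0.0452. None passed for GRP2/MP3 against PFMP, where 0.199% of genes were called and the lowest adjusted p of a member was 0.0558 (C3ar1, limma). None passed for BNAP/GRP1 against GRP2/MP3, where 0.00725% of genes were called, and the interval of the difference in C1qa was -2.97 to 2.24 on the log2 scale.

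Markers of microglia, of any leukocyte or myeloid cell and, in GRP2/MP3, of erythroid cells moved with the C1q chains and C3ar1 outside batch 3. Over 10 microglia markers the summed RPKM outside batch 3 was 92.9 to 3105 in BNAP/GRP1 and 582 to 2929 in GRP2/MP3, against 23.5 to 65.0 in NSC, 17.8 to 31.5 in GRP3 and 15.1 to 94.4 in PFMP. With batch as a block and batch 3 left out, 8 of the 10 passed the test in GRP2/MP3 and 4 in BNAP/GRP1, all of them higher than in NSC, and 6 and 2 passed when batch was not in that model. P2ry12, a receptor that marks resident microglia, stood at 368, 64.7 and 11.5 RPKM in BNAP/GRP1 1, 2 and 4 and at 90.1, 1101 and 60.7 RPKM in GRP2/MP3 1, 2 and 4. Tmem119 stood at 32.2, 29.6 and 10.5 RPKM and at 23.1, 91.3 and 1.92 RPKM in the same libraries. However, P2ry12 in PFMP 4 (13.05 RPKM) lay above BNAP/GRP1 4, and Tmem119 in GRP3 1 (2.33 RPKM) above GRP2/MP3 4. Sall1 stood at 34.2, 5.98 and 5.92 RPKM in BNAP/GRP1 1, 2 and 4. In GRP2/MP3 1, 2 and 4 it stood at 10.66, 37.9 and 5.002 RPKM. Sall1 in NSC 1 (6.40 RPKM) lay above BNAP/GRP1 2, BNAP/GRP1 4 and GRP2/MP3 4. In batch 3, where C1q was as high in every population, P2ry12 stood at only 0.915 to 1.49 RPKM, Tmem119 at 0.687 to 1.10 and Sall1 at 0 to 0.385. Over 6 markers of macrophages at the borders of the brain the sum was 130.8 to 2485 RPKM in GRP2/MP3 and 61.0 to 123 in BNAP/GRP1 outside batch 3, and 1673 to 2016 in batch 3. Most of this was Pf4, at 1583 to 1917 RPKM in batch 3, a gene also of platelets, whereas Cd163 was at 0.112 to 0.319 and Lyve1 at 0.343 to 0.791 RPKM there. The 8 leukocyte or myeloid markers summed to 149.8 to 8062 RPKM in BNAP/GRP1 and 709 to 17008 in GRP2/MP3, and to 21.8 to 127 RPKM in NSC, GRP3 and PFMP outside batch 3. They do not set microglia apart from other leukocytes. Outside batch 3 the 8 neutrophil markers overlapped between populations. They summed to 6.14 to 108 RPKM in BNAP/GRP1, 8.19 to 50.9 in GRP2/MP3 and 12.8 to 21.6 in NSC. In GRP3 they summed to 3.29 to 14.2 RPKM and in PFMP to 0.279 to 4.82. In the model with the batch block and without batch 3, 2 of the 5 border macrophage markers tested passed in GRP2/MP3 and 0 in BNAP/GRP1. The 5 erythroid markers summed to 2754 to 26514 RPKM in GRP2/MP3 and 101.4 to 3719 in BNAP/GRP1 outside batch 3, against 10.2 to 753 in NSC, GRP3 and PFMP, and 4 of the 5 were higher in GRP2/MP3 in that model. The part of these cells in the levels of the complement genes was not tested.

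**Figure D4:**
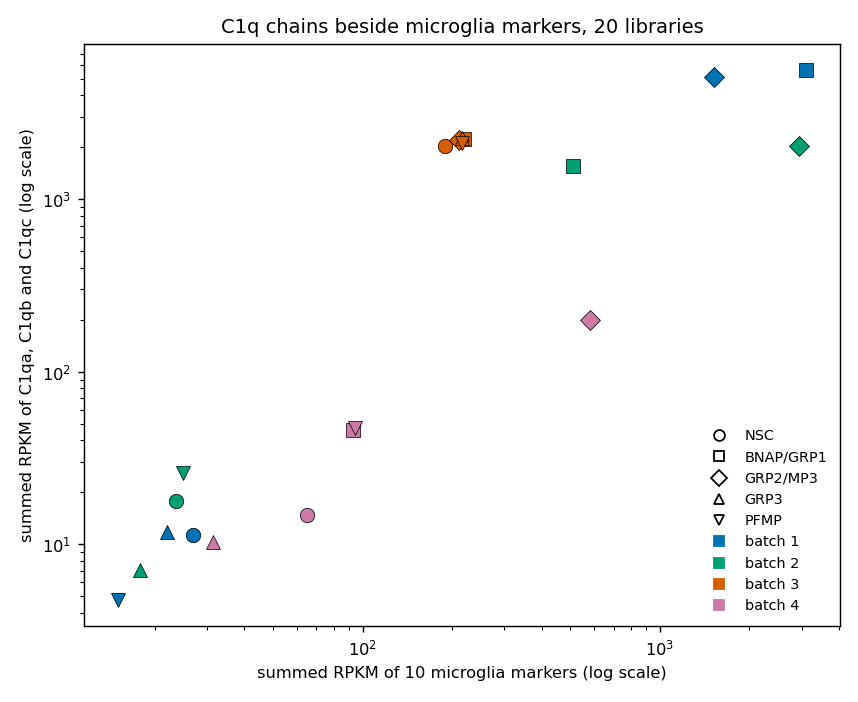
Summed RPKM of C1qa, C1qb and C1qc (y axis, log scale) against the summed RPKM of 10 microglia markers (x axis, log scale) in the 20 libraries, with symbols for the population and colours for the batch. Outside batch 3 the 5 libraries with the most C1q are also the 5 with the most microglia markers, while the 5 libraries of batch 3 cluster at 190 to 220 RPKM of microglia markers with 2036 to 2264 RPKM of C1q.

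Over the 20 libraries, the genes whose log2 levels were most like that of C1qa were C1qb (Pearson r = 0.991), Tyrobp (0.991), Fcgr3 (0.990), Csf1r (0.990) and C1qc (0.988). Tyrobp, Fcgr3 and Csf1r are genes of myeloid cells, for an adaptor of surface receptors, a receptor of immunoglobulin G and the receptor for colony stimulating factor. After the mean of each batch was taken out, r was 0.986 to 0.992 for these 5. For Itgam they were Mpeg1 (0.989), Cd33 (0.983), Ncf1, Plek and Cd37, with r of 0.948 to 0.980 after batch means were removed. For C3 they were Ear1 (0.996), Igkv1-110, Fcmr, Bpifa1 and Il10, with r of 0.871 to 0.932 after batch means were removed. For C4b they were Gbp2 (0.970), Fas, Traf1, Mapkapk3 and Isg20, with 0.781 to 0.905. These libraries share their batches, and the correlations are descriptions over 20 points. Among the 9 genes, without batch 3 and over 15 libraries, r with C1qa was 0.99 for C1qb and C1qc, 0.96 for C3ar1, 0.86 for Itgam, 0.85 for Itgb2 and 0.83 for C5ar1, but 0.01 for C3 and 0.00 for C4b.

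Another 37 genes of the complement system were followed, of which 29 passed the filter of 1 RPKM in 4 libraries. None of the 29 was higher than NSC in any of the 4 comparisons, and the one that was lower was Hc, which encodes C5. Its log2 fold change by limma was -2.93 ± 0.61 in PFMP, -2.66 ± 0.61 in GRP3 and -2.71 ± 0.61 in GRP2/MP3, with adjusted p of 0.0135, 0.0314 and 0.0257. Without batch 3 the adjusted p of Hc by limma was 0.0338, 0.0660 and 0.0602, so only the call in PFMP was kept of these 3. Hc stood at 6.08, 17.7, 3.03 and 6.90 RPKM in NSC and, apart from 6.48 RPKM in BNAP/GRP1 4, at no more than 1.03 RPKM in any progenitor. The median log2 fold change of the 29 was -0.23 in PFMP, -0.05 in GRP3, 0.07 in GRP2/MP3 and 0.38 in BNAP/GRP1. With the batch block and without batch 3, C8g, for the γ chain of the terminal component C8, was also lower than in NSC in GRP2/MP3, GRP3 and PFMP. Clu, which encodes clusterin, an inhibitor of the terminal pathway, was lower in BNAP/GRP1, GRP2/MP3 and GRP3 in the same model. Clu stood at 61.6, 328, 19.2 and 414 RPKM in NSC, but also at 180 RPKM in PFMP 4 and 111 RPKM in GRP2/MP3 4.

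Vtn, for vitronectin, which binds the terminal complex, was higher than in NSC in this model in GRP2/MP3 (log2 fold change 5.59 ± 0.84, limma adjusted p = 0.00104), at 68.8, 118, 0.205 and 258 RPKM. GRP3 had 20.6, 13.8, 0 and 8.56 RPKM, above the 0.567, 1.11 and 4.77 RPKM of NSC in batches 1, 2 and 4, and did not pass (limma adjusted p = 0.192). Of 8 pericyte markers, a list that holds Vtn itself, 6 were higher in GRP2/MP3 in this model, Vtn among them. The 8 summed, with Vtn included, to 457 to 7477 RPKM there outside batch 3, against 5.30 to 205 in the other populations. The list is therefore not independent of Vtn, and the part of pericytes in its level was not tested. The 3 genes with the highest mean over the 20 libraries were Cfp, for properdin, Cfb, for factor B, and Clu. Cfp stood at 883 to 974 RPKM and Cfb at 249 to 292 RPKM in batch 3, while outside it they did not exceed 11.7 and 7.46 RPKM. Cfp and Cfb, both of the alternative pathway, were thus at their highest in batch 3, as was C3, whereas Cfd, for factor D, did not exceed 0.850 RPKM there.

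**Figure D5:**
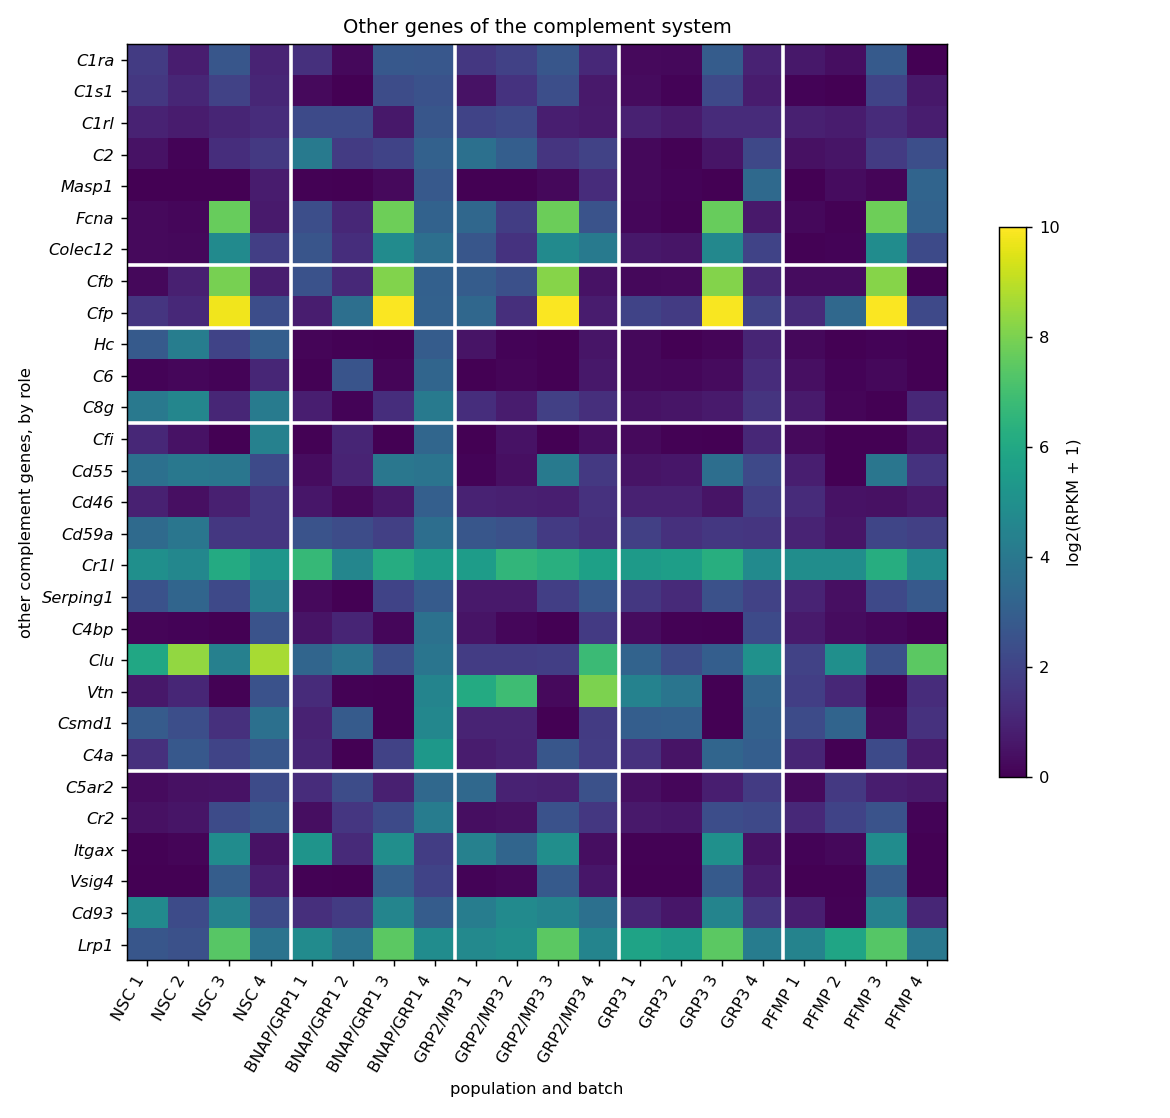
Levels as log2(RPKM + 1) (colour) of the 29 other complement genes that passed the filter (rows, in groups by role from recognition to receptors) in the 20 libraries (columns, population and batch). The columns of batch 3 are bright for Cfp, Cfb and Fcna in every population, Clu is brightest in NSC 2 and NSC 4, and Vtn is brightest in GRP2/MP3 1, 2 and 4.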

How the data were processed

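The authors deposited a table of RPKM, in which reads are divided by gene length and library total, with 45705 genes and 20 libraries. Per the labels and the methods of the study, polyA RNA was amplified with MessageAmp II, sequenced for 75 cycles, and the reads passed through cutadapt 3.4 (adapters), STAR 2.6.1 (alignment, GRCm38), Salmon 1.9.0 (quantification) and FastQC 0.11.9 (quality). Gene lengths and read totals behind the RPKM are not given in the sources used here. Since RPKM are not counts, no count model was used. Amplification of little RNA can add spread to low genes.

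The values were taken as log2(RPKM + 1), which understates the change of low genes. The 27614 genes that reached 1 RPKM in 4 or more libraries were fitted in R 4.3.3 with limma 3.58.1, with 1 mean per population, no batch term and a trended prior, and p was adjusted by Benjamini-Hochberg within each comparison. Positions are from GENCODE vM21 (GRCm38). Steps of low values were called whole within 0.05 of a read, which held for 6 of the 9 members. The fit was tested on simulated data. The batch numbers come from the labels and pair the samples. After population means were taken out, libraries of 1 batch correlated at 0.0341 or more (medians 0.337, 0.262, 0.769 and 0.581 in batches 1 to 4), and libraries of different batches at a median of -0.254. The study names no batch term, so batch entered as an alternative. The members and all lists were chosen with earlier results of these data known. Named are all 9 members, other complement genes past the threshold or among the 3 highest, the 5 genes most like C1qa, C3, C4b and Itgam, and the defining markers. One other complement gene of the list is not reported here, and the list counts leave it out. C4a, Fcna and Cfd were named after their values were seen. The alternatives changed the pseudocount (0.1), the filter (none, or a mean of 5 RPKM or more), the scaling (median of ratios, quantiles), the prior (untrended), the libraries fitted (the compared populations, or each library or batch left out) and their weights. Those that also leave out BNAP/GRP1 4, and batches 1 and 2 alone, were chosen after seeing the data. The batch block with a whole batch left out was fitted for batch 3 alone, the batch whose values stood out. Calls from that fit therefore rest on a choice that was not blind to the data. The filter was counted over all 20 libraries, also in fits that left libraries out. Batch 3 alone could thus admit a gene to the fits without it, and the shares of all genes given there include such genes. Genes at 0 in all libraries of a fit were dropped from it. No library was left out of the primary analysis, and raw reads were not analysed here. P-values measure the spread between these libraries.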

Additional observations from a re-analysis of the deposited data

Results flagged for a closer look

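In 18 of 45 groups of 4 libraries (9 genes in 5 populations) 1 library lay far from the other 3 on the log2 scale by Dixon's criterion, which chance alone gives in about 1 in 20 independent groups. The 45 groups share the same 20 libraries and hold correlated genes, so they are not independent and 18 cannot be set against that rate. In all 18 the library that lay apart was that of batch 3, and it was the highest. For the C1q chains this was so in NSC (C1qa 517.9, C1qb 888 and C1qc 630.1 RPKM) and in GRP3 (589, 982 and 693 RPKM). For C3 it was so in GRP2/MP3 (26.1 RPKM), GRP3 (27.9) and PFMP (24.6). For C3ar1 it was so in NSC (110.3 RPKM), GRP3 (123) and PFMP (110.5), and for C5ar1 in NSC (71.8) and PFMP (75.2). Itgam was so in PFMP (108 RPKM), and Itgb2 in NSC (317), GRP3 (359) and PFMP (348). In BNAP/GRP1 this held for none of the 9 genes, and in GRP2/MP3 for C3 alone. The erythroid, alveolar macrophage and lung epithelium markers of the same libraries are given with the depth of the libraries, and their part in these values was not tested.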

How the results depend on the processing

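The 18 named differences from NSC (C1q, C4b, C3ar1, C5ar1, Itgam and Itgb2 in BNAP/GRP1 and GRP2/MP3, C4b in GRP3 and PFMP) were each recomputed under 25 alternatives. Of these 450 values, 399 kept direction and side of the threshold, 49 kept direction and passed, and 2 reversed, both for C4b in BNAP/GRP1, whose log2 fold change ran from -1.33 to 0.17 when each library was left out in turn. The 18 smaller ones (C3 in all 4 progenitors and the rest in GRP3 and PFMP), from -0.63 to 0.48, never passed, and each changed sign under at least 1 alternative. The number of members past the threshold stayed at 0 with the replicate block alone, with the other scalings, filters, pseudocount and prior, and with any single library, or batch 1, 2 or 4, left out. Without batch 3 it was 1 for BNAP/GRP1 and 4 for GRP2/MP3, and with the replicate block also 3 and 4, 1 each for GRP3 and PFMP, and 4 in the direct comparisons. Library weights gave 5, 4 and, in the direct comparisons, 14, beside 9.5%, 6.97% and, in the direct comparisons that held the 14, 9.63 to 13.9% of all genes. Chosen after seeing the data, leaving out BNAP/GRP1 4 besides batch 3 gave 4, 4 and 10 without the block (beside 2.4%, 3.12% and 0.12 to 0.37% of all genes) and 4, 4, 1, 1 and 10 with it (2.51%, 4%, 3.49%, 4.16% and 0.138 to 0.605%). Batches 1 and 2 alone gave 4, 4 and 15 (5.11%, 6.17% and 0.464 to 2.38%). The cause of these changes was not tested. C1qb had a median share of 33.2% of C1q, and 30.9% without batch 3. The median r of the genes most like a member was 0.989, and 0.940 after batch means were removed. Depth was lowest in BNAP/GRP1 4 (0.0395 of BNAP/GRP1 1), and a gene listed at 0 is not shown to be absent.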
